A study of Homo sapiens with 4 samples.

Results

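NF-kB is a family of dimeric transcription factors, and this account follows 10 of its genes through A549, a long-established line of human lung adenocarcinoma cells. The 10 were taken by symbol from the 26255 genes measured. NFKB1, NFKB2, RELA and RELB encode subunits, NFKBIA, TNFAIP3 and BIRC3 encode regulators that the pathway induces and that feed back on it, TNFAIP2 and ICAM1 are target genes, and IL32 encodes a proinflammatory cytokine. Wild-type cells were grown for 5 days with 5% serum, either on a gelled basement membrane extract, Matrigel (3D), or on an ordinary dish (2D), under hypoxia (1% oxygen) or normoxia. The 4 groups were 3D hypoxia, 3D normoxia, 2D hypoxia and 2D normoxia, each with 1 library of poly(A) RNA. The stated purpose was to characterise structures, abbreviated MLSs by the submitters, that form under hypoxia, in a study of micropapillary lung adenocarcinoma.

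In resting cells IkB-alpha, the product of NFKBIA, holds RELA dimers in the cytoplasm. Signals from tumour necrosis factor or interleukin-1 receptors activate the IKK kinases, which mark IkB-alpha for destruction, and the freed dimers switch on genes that include NFKBIA and TNFAIP3, the gene of the ubiquitin-editing enzyme A20. A second, slower arm runs from receptors such as the lymphotoxin beta receptor through the kinase NIK (gene MAP3K14) to the processing of the NFKB2 product, which pairs with RELB. Low oxygen is known to affect the pathway because the oxygen-dependent hydroxylases that control HIF also restrain IKK. RNA levels show neither protein nor the location of a factor in the cell.

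Levels are in FPKM, which corrects fragments for transcript length and for depth, so that genes can be set against each other. Log2 ratios were taken on FPKM + 1 and understate the differences of low genes. With 1 library per group, the differences within a culture or an oxygen level are sizes with a counting error and no test. The effect of oxygen averaged over cultures, and that of culture averaged over oxygen levels, came from a limma fit to the 12663 genes whose mean reached 1 FPKM, and "rose" is used only of genes with an adjusted p below 0.05. All 10 genes passed that filter. Of them, ICAM1, with a mean of 1.72 FPKM, was under 1 FPKM in both 2D libraries and would not have passed without its 3D hypoxia library.

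Promoter sequence from RefSeq (GRCh38.p14, 250 bases before to 50 after an annotated start) was found for 9 of the 10 genes, RELB being the exception, in 14 windows. The 4 windows printed here belong to the 3 genes in the table that rose under hypoxia and, for contrast, to NFKBIA, which rose with 3D culture only. Each is given 5′ to 3′ on the strand of the gene. IL32 has a second window, not printed, which held no match to either motif. Capitals mark matches, on either strand, to the kB consensus GGGRNWYYCC, a form of the site that NF-kB dimers bind. R is A or G, N any base, W is A or T and Y is C or T. In TNFAIP3 capitals also mark a CACGTG run, which holds ACGTG on both strands. ACGTG is the core of the hypoxia response element bound by HIF.
IL32, chr16:3065153-3065452, plus strand: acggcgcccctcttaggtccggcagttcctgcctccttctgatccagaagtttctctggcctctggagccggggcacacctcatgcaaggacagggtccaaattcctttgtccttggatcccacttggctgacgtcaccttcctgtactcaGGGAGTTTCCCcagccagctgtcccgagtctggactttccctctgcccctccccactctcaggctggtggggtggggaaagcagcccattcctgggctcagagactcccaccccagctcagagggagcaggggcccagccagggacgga
TNFAIP3, chr6:137867009-137867308, plus strand: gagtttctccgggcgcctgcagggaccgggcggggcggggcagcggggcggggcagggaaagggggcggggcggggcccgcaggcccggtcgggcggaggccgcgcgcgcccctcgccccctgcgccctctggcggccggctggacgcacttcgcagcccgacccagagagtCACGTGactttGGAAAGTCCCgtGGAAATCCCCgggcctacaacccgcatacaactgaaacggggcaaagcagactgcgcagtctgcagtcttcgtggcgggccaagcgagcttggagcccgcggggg
BIRC3, chr11:102317234-102317533, plus strand: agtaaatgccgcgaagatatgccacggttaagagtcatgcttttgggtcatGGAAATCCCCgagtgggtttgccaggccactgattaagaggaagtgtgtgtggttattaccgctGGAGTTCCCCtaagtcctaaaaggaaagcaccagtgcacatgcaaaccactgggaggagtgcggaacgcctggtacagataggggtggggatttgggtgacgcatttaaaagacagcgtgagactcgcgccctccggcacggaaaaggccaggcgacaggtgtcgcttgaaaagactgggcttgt
NFKBIA, chr14:35404700-35404999, minus strand: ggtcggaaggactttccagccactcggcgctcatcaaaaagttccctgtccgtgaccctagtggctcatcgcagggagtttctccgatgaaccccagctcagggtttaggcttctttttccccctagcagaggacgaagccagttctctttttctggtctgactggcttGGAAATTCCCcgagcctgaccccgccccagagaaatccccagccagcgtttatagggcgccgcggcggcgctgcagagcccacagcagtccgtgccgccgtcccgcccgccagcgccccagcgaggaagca

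Positions are counted from the start site, negative before it. The IL32 run was a pair of overlapping kB matches on opposite strands, between -99 and -89. TNFAIP3 had 2 kB matches, at -67 to -58 and -55 to -46, just downstream of the CACGTG run. BIRC3 had 2, the nearer of them at -135 to -126, and NFKBIA had 1, at -81 to -72. Over all the members, 7 of the 14 windows and 6 of the 9 genes held a kB match. The share was 5.91% over all 35116 promoter windows given by RefSeq. NFKB1 and NFKB2 were the other genes with one, and the windows of RELA, TNFAIP2 and ICAM1 had none. Only exact matches were counted. The ICAM1 window holds TGGAAATTCC, which departs from the consensus in its first base only. A window without a match may thus still hold a site that NF-kB binds. The ACGTG core was in 2 of the 14 windows, those of TNFAIP3 and TNFAIP2, and in 21.4% of all windows. Matches are letters only, and no binding was measured.

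**Figure D1:**
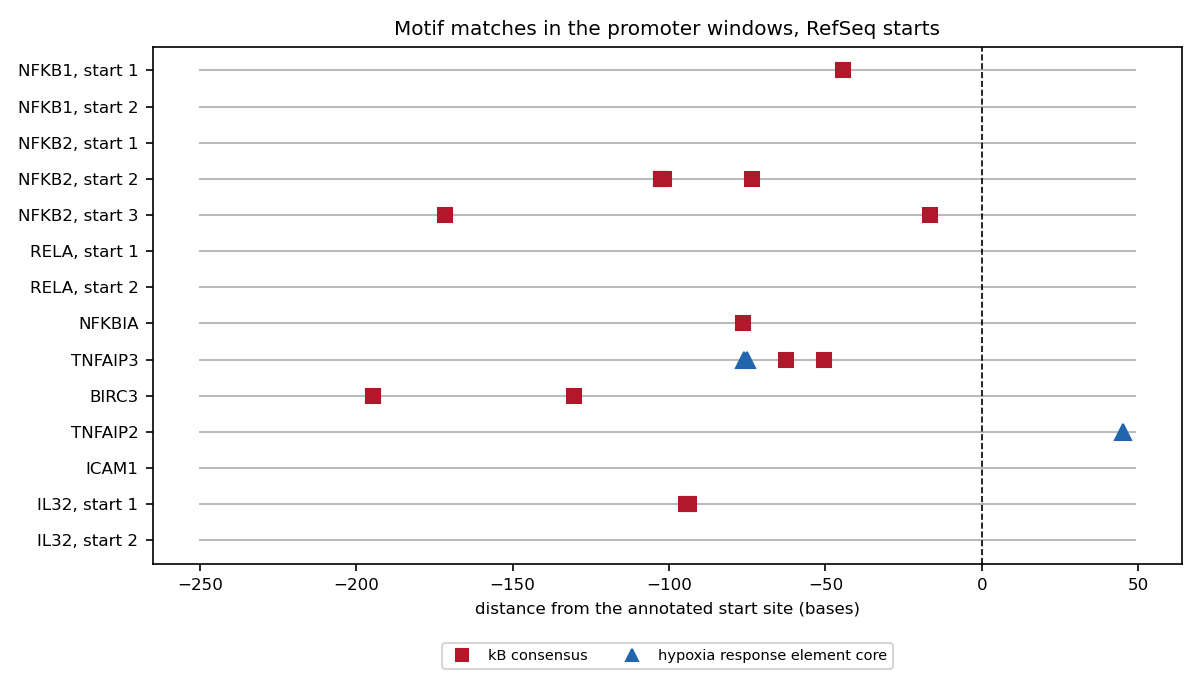
Positions of motif matches in the 14 promoter windows, by distance in bases from the annotated start (dashed line); a square is a kB consensus match and a triangle an ACGTG core. Overlapping marks are overlapping matches, on opposite strands or, in NFKB2, also on the same strand. The kB matches of IL32, TNFAIP3 and NFKBIA all lie within 100 bases of the start.

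IL32 had the largest hypoxia difference of the 10. Its level was 49.8 FPKM in 3D hypoxia and 4.27 FPKM in 3D normoxia. It was 35.4 FPKM in 2D hypoxia and 4.06 FPKM in 2D normoxia. Both hypoxia libraries thus stood far above both normoxia libraries. The cultures were close to each other in normoxia, while in hypoxia 3D stood above 2D by 0.48 on the log2 scale (counting error 0.074). That culture difference was 0.29 when each library was rescaled to a common sum. The fold difference between hypoxia and normoxia was 11.7 in 3D and 8.72 in 2D, and the log2 ratios were 3.27 and 2.85 with counting errors of 0.18 and 0.13. IL32 rose under hypoxia by 3.06 ± 0.14 (SE) on the log2 scale in the limma fit, adjusted p = 0.0027, rank 17 of the 12663 genes by size of the increase. The 3D effect was 0.27 ± 0.14 and did not pass (limma adjusted p = 0.21). Among the 10 genes IL32 stood 8th by level in both normoxia libraries and 4th in both hypoxia libraries. These values are sums over the isoforms of the gene, of which the annotation holds many. In bulk RNA, fewer cells with a transcript and less of it per cell cannot be told apart.

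The genes nearest to IL32 in pattern were taken from 9003 others whose mean reached 5 FPKM, small RNA genes and LOC or LINC loci left out, by the root mean square distance between log2 profiles centred over the 4 libraries. NDRG1, a stress-induced gene and common hypoxia marker, was nearest at a distance of 0.29. It was followed by the lactate exporter SLC16A3 (0.32), APOL2 (0.32), an intracellular relative of the trypanolytic serum factor, APOL1 (0.42), which encodes that factor, and the chemokine CCL2 (0.44). APOL1 was at 23.9 FPKM in 3D hypoxia and 3.46 FPKM in 3D normoxia, and at 16.3 FPKM in 2D hypoxia and 3.44 FPKM in 2D normoxia. With 4 points a profile, such likeness is a description. None of the other 9 genes was as near, the closest being TNFAIP3 at 0.90.

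The feedback genes TNFAIP3 and BIRC3 rose together. TNFAIP3 was at 9.07 FPKM in 3D hypoxia and 2.59 FPKM in 3D normoxia, and at 4.78 FPKM in 2D hypoxia and 1.72 FPKM in 2D normoxia. BIRC3, which encodes the ubiquitin ligase cIAP2 of the tumour necrosis factor receptor complex, was at 27.7 FPKM in 3D hypoxia and 9.53 FPKM in 3D normoxia, and at 13.8 FPKM in 2D hypoxia and 6.20 FPKM in 2D normoxia. For both genes the 2 hypoxia libraries stood above the 2 normoxia libraries, and at each oxygen level 3D stood above 2D. TNFAIP3 rose under hypoxia by 1.29 ± 0.16 on the log2 scale (limma adjusted p = 0.0195) and with 3D culture by 0.60 ± 0.16 (adjusted p = 0.0457). BIRC3 rose by 1.24 ± 0.14 under hypoxia (limma adjusted p = 0.017) and by 0.75 ± 0.14 with 3D culture (adjusted p = 0.022). The TNFAIP3 call for culture was lost when each library was rescaled to a common sum (0.49, adjusted p = 0.068). Their centred profiles were 0.078 apart, the smallest distance between any 2 of the 10. BIRC2, the gene of the related ligase cIAP1, was at 16.8 FPKM in 3D hypoxia and 11.9 FPKM in 3D normoxia, and at 21.4 FPKM in 2D hypoxia and 15.3 FPKM in 2D normoxia, and did not pass for hypoxia (limma adjusted p = 0.079).

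NFKBIA differed between cultures more than between oxygen levels. It was at 118 FPKM in 3D hypoxia and 94.8 FPKM in 3D normoxia, and at 50.1 FPKM in 2D hypoxia and 46.8 FPKM in 2D normoxia. Both 3D libraries stood well above both 2D libraries, and the 2D libraries were close to each other. NFKBIA rose with 3D culture by 1.11 ± 0.13 on the log2 scale (limma adjusted p = 0.0095), a fold of 2.36 in hypoxia and 2.03 in normoxia. Its hypoxia effect was 0.21 ± 0.13 (limma adjusted p = 0.35). Within 2D its hypoxia ratio was 0.10 with a counting error of 0.043, and it turned to -0.03 when libraries were rescaled to a common sum. The ratio of TNFAIP3 to NFKBIA in the same library, which no library scaling touches, was 0.0766 in 3D hypoxia and 0.0273 in 3D normoxia, and 0.0953 in 2D hypoxia and 0.0367 in 2D normoxia. It was higher in both hypoxia libraries, as was that of BIRC3 to NFKBIA, at 0.234 in 3D hypoxia and 0.101 in 3D normoxia, and at 0.276 in 2D hypoxia and 0.133 in 2D normoxia.

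**Figure D2:**
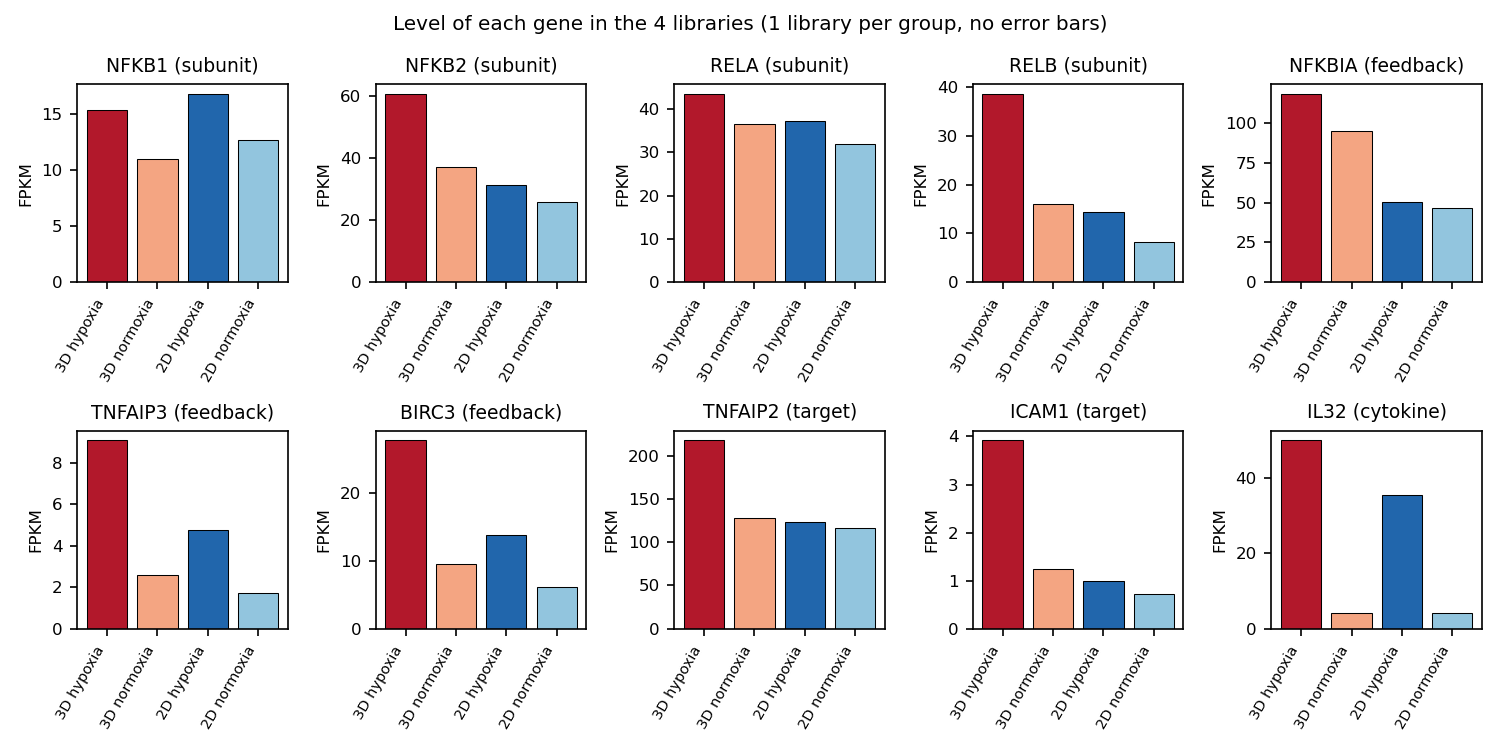
Level in FPKM (linear axes from 0, 1 panel per gene) in 3D hypoxia, 3D normoxia, 2D hypoxia and 2D normoxia, 1 library each, so no error bars. IL32, TNFAIP3 and BIRC3 are highest in the 2 hypoxia libraries, NFKBIA in the 2 3D libraries, and 9 of the 10 genes have their highest value in 3D hypoxia.

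Among the subunits, RELB was the one that moved most. RELB was at 38.6 FPKM in 3D hypoxia and 16.1 FPKM in 3D normoxia, and at 14.4 FPKM in 2D hypoxia and 8.25 FPKM in 2D normoxia. The order was thus by culture first, since the lower 3D value stood above the higher 2D value, and by oxygen within each culture. RELB rose under hypoxia by 0.98 ± 0.15 (limma adjusted p = 0.032) and with 3D culture by 1.12 ± 0.15 (adjusted p = 0.012). The hypoxia call did not hold when the variance was not allowed to follow the mean level (limma without trend, adjusted p = 0.051).

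NFKB2, whose product pairs with RELB, was at 60.7 FPKM in 3D hypoxia and 37.2 FPKM in 3D normoxia, and at 31.4 FPKM in 2D hypoxia and 25.9 FPKM in 2D normoxia. Both 3D libraries again stood above both 2D libraries. NFKB2 rose with 3D culture by 0.72 ± 0.14 (limma adjusted p = 0.026), and its hypoxia effect of 0.48 ± 0.14 did not pass (adjusted p = 0.12).

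RELA and NFKB1, which make up the classical dimer, differed least. RELA was at 43.5 FPKM in 3D hypoxia and 36.5 FPKM in 3D normoxia, and at 37.3 FPKM in 2D hypoxia and 31.9 FPKM in 2D normoxia. NFKB1 was at 15.3 FPKM in 3D hypoxia and 10.98 FPKM in 3D normoxia, and at 16.8 FPKM in 2D hypoxia and 12.6 FPKM in 2D normoxia. Both were higher in each hypoxia library than in each normoxia library, by small amounts, and NFKB1 was the only one of the 10 genes lower in 3D than in 2D. Neither passed for hypoxia (RELA 0.23 ± 0.11, limma adjusted p = 0.26, and NFKB1 0.42 ± 0.11, adjusted p = 0.098) or for culture (RELA 0.20 ± 0.11, adjusted p = 0.24, and NFKB1 -0.16 ± 0.11, adjusted p = 0.345).

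The make-up of the subunit RNA therefore differed between libraries. RELB stood at 0.886 of the RELA level in 3D hypoxia and 0.441 of it in 3D normoxia, and at 0.387 of it in 2D hypoxia and 0.259 of it in 2D normoxia. The ratio of NFKB2 to NFKB1 was 3.96 in 3D hypoxia and 3.39 in 3D normoxia, against 1.87 in 2D hypoxia and 2.05 in 2D normoxia. NFKBIA stood at 2.72 times RELA in 3D hypoxia and 2.60 times in 3D normoxia, and at 1.34 times in 2D hypoxia and 1.47 times in 2D normoxia. The last 2 ratios were higher in both 3D libraries than in both 2D libraries. With oxygen, each was higher in hypoxia within 3D and lower in hypoxia within 2D, while the ratio of RELB to RELA was higher in hypoxia in both cultures. These ratios have no replicate and no test.

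The target genes TNFAIP2 and ICAM1 were highest in 3D hypoxia. TNFAIP2, first found as a gene induced by tumour necrosis factor in endothelial cells, was the most abundant of the 10 in every library. It was at 218 FPKM in 3D hypoxia and 128 FPKM in 3D normoxia, and at 123 FPKM in 2D hypoxia and 116 FPKM in 2D normoxia. ICAM1, the adhesion molecule that leukocyte integrins bind, was the least abundant, at 3.92 FPKM in 3D hypoxia and 1.23 FPKM in 3D normoxia, and at 0.998 FPKM in 2D hypoxia and 0.729 FPKM in 2D normoxia. For each gene 1 library, 3D hypoxia, stood apart from the other 3. Neither passed for hypoxia (TNFAIP2 0.42 ± 0.19, limma adjusted p = 0.23, and ICAM1 0.67 ± 0.26, adjusted p = 0.18) or for culture (TNFAIP2 0.48 ± 0.19, adjusted p = 0.12, and ICAM1 0.83 ± 0.26, adjusted p = 0.069). An additive fit counts a difference seen in 1 library as error, so these values say little about 3D hypoxia alone. ICAM1 rested on about 144 fragments in 3D hypoxia and 47 in 3D normoxia, and on about 126 in 2D hypoxia and 56 in 2D normoxia, which gives its 3D ratio of 1.14 a counting error of 0.15. TNFAIP2 rested on at least 6676 fragments in each library, and the counting error of its 3D ratio of 0.76 was 0.022.

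**Figure D3:**
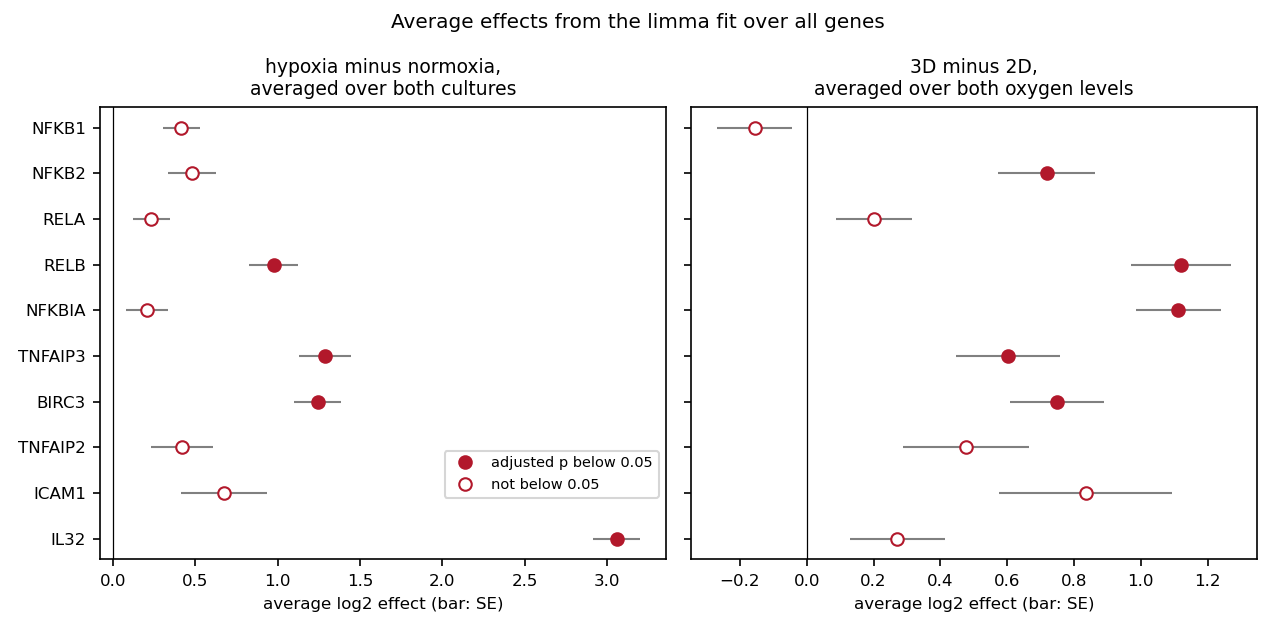
Average log2 effects of hypoxia (left) and of 3D culture (right) for the 10 genes from the limma fit, with SE as bars; filled points have an adjusted p below 0.05. RELB, TNFAIP3 and BIRC3 are filled on both sides, IL32 for hypoxia only, and NFKB2 and NFKBIA for culture only.

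Counted over the 10 genes, 4 rose under hypoxia by limma, where 3.20% of all 12663 genes rose, and 0 fell, against 1.64% of all genes. With 3D culture 5 rose, against 10.4% of all genes, and 0 fell, against 11.6%. At an unadjusted p under 0.05 the counts were 7 higher and 0 lower for hypoxia, against 12.9% and 12.7% of all genes. For culture they were 7 higher and 0 lower, against 18.8% and 21.5%. Both counts of 7 include ICAM1, which passed the filter only through its 3D hypoxia library. With no filter on low values, which takes in 19356 genes, none of these calls passed (0 for hypoxia and 0 for culture by limma, and 3589 and 5630 genes at an unadjusted p under 0.05). By adjusted p with the filter, RELB, TNFAIP3 and BIRC3 were called for both hypoxia and culture, and RELA, NFKB1, TNFAIP2 and ICAM1 for neither. The 10 genes had a median hypoxia effect of 0.58 and a median 3D effect of 0.66, where the medians of all genes were -0.01 and -0.03. After each library was rescaled to a common sum, the same 4 were called for hypoxia, and for culture the same without TNFAIP3. That rescaling moved the median of all genes to -0.14 for hypoxia and -0.21 for culture. The share of calls that were higher moved to 38.9% in place of 66.1% for hypoxia, and to 19.7% in place of 47.1% for culture.

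Sorted by library, the 10 genes fell into 2 sets of 5. NFKB1, RELA, TNFAIP3, BIRC3 and IL32 were higher in both hypoxia libraries than in either normoxia library, an order that 16.7% of all genes showed. The place of RELA was narrow, at 37.3 FPKM in 2D hypoxia and 36.5 FPKM in 3D normoxia, and was not tested. NFKB2, RELB, NFKBIA, TNFAIP2 and ICAM1 were higher in both 3D libraries than in either 2D library, an order that 25.6% of all genes showed, and 0 of the 10 had the opposite order, against 30.1%. ICAM1 is in this set although it had passed the filter only through its 3D hypoxia library. On rescaling to a common sum NFKB1 left the first set and TNFAIP2 the second.

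Within 3D, hypoxia values stood above normoxia values for all 10 genes, where 47.7% of all genes had a ratio above 0, and 5 were at least 2-fold higher (RELB, TNFAIP3, BIRC3, ICAM1 and IL32), against 2.91% of all genes, ICAM1 among them having passed the filter only through the library where it was high, and 0 at least 2-fold lower, against 1.11%. Within 2D, all 10 were above 0 again, against 49.6% of all genes. There 3 were at least 2-fold higher (TNFAIP3, BIRC3 and IL32), against 2.01%, and 0 at least 2-fold lower, against 1.59%. A ratio above 0 in both cultures was shown by 34.2% of all genes. On rescaling to a common sum NFKBIA and TNFAIP2 were below 0 in 2D, at -0.03 and -0.06, and BIRC3 dropped under 2-fold there. The medians of the 10 log2 ratios were 0.95 in 3D and 0.33 in 2D. In hypoxia 9 of the 10 were higher in 3D than in 2D, against 47.0% of all genes. RELB, NFKBIA and ICAM1 were at least 2-fold higher, against 3.80%, and 0 at least 2-fold lower, against 3.02%. ICAM1 here too had passed the filter only through its 3D hypoxia library. In normoxia 9 were higher in 3D, against 46.9%, but IL32, RELA and TNFAIP2 were only 0.06, 0.19 and 0.14 above 0 and turned negative on rescaling. NFKBIA alone was at least 2-fold higher there, against 1.98%, and 0 were at least 2-fold lower, against 2.49%. The NFKBIA ratio was 0.81 on rescaling, below 2-fold.

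The hypoxia ratio was larger in 3D than in 2D for each of the 10 genes, at every scaling tried. Of all genes, 48.2% had a larger ratio in 3D, and 17.5% were above 0 in both cultures and larger in 3D. The difference of the log2 ratios ran from 0.03 for RELA to 0.93 for ICAM1, with a median of 0.41. ICAM1 had passed the filter only through its 3D hypoxia library, where it was high, so its larger ratio in 3D is no separate result. The difference was 0.68 for TNFAIP2, with a counting error of 0.028, and 0.93 for ICAM1, with a counting error of 0.18. For RELA and NFKB1 (0.06) it was within the counting error, and for IL32 it was 0.42 with a counting error of 0.23. None reached a log2 difference of 1 in either direction, which 1.87% of all genes reached upward and 0.861% downward. With 1 library per group the difference of responses could not be tested, and it is the same quantity that serves as error in the limma fit.

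**Figure D4:**
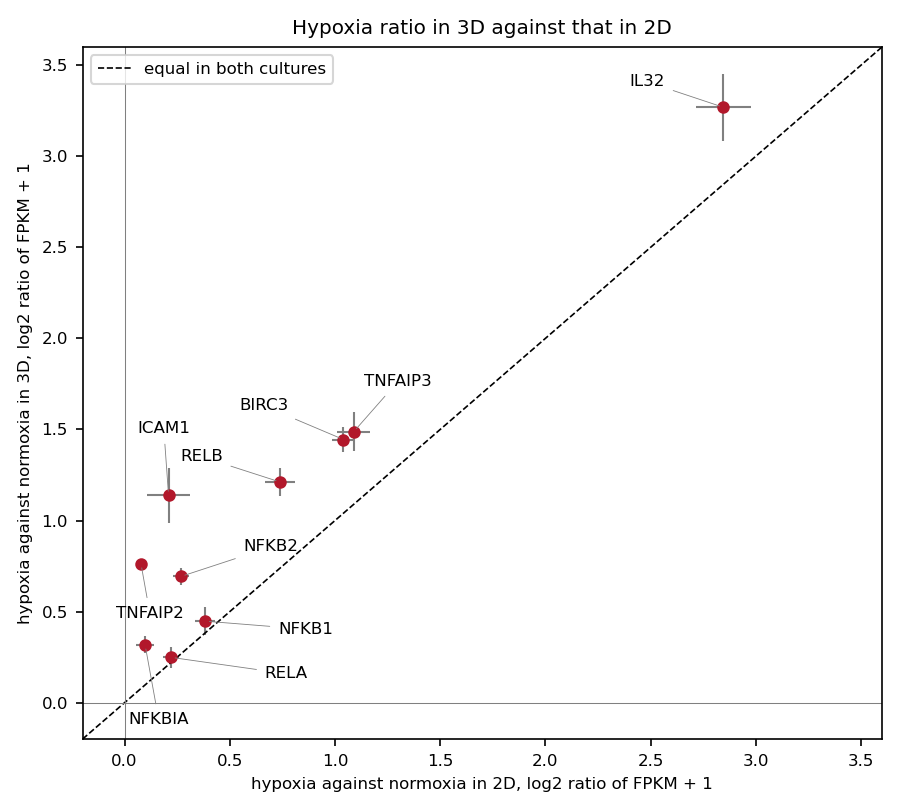
Hypoxia log2 ratio of FPKM + 1 in 3D (vertical) against that in 2D (horizontal) for the 10 genes, with counting errors (1 SE, sampling of fragments only) as bars and a dashed line where both are equal. All points lie above the line, TNFAIP2 and ICAM1 farthest from it, and IL32 stands apart with the largest ratio on both axes. ICAM1 passed the filter only through its 3D hypoxia library.

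The rest of the pathway was read from lists of known components. With no filter on low values, none of the listed genes passed for hypoxia or for culture. Of 20 ligand and receptor genes 10 passed the filter, 1 rose under hypoxia and 0 fell by limma, against 3.20% and 1.64% of all genes. The counts were 1 and 1 on rescaling to a common sum, against 303 and 475 of all 12663 genes. They were 3 (IL1RAP, LTB and TNFRSF12A) and 1 without genes listed at 0 in any library, against 734 and 507 of 12578. LTB, the gene of lymphotoxin beta, was the one called on the deposited scale, at 2.79 FPKM in 3D hypoxia and 0.563 FPKM in 3D normoxia, and at 1.35 FPKM in 2D hypoxia and 0.232 FPKM in 2D normoxia (1.11 ± 0.20, limma adjusted p = 0.044). LTB was low throughout, passed the filter through its hypoxia libraries, and lost the call with a pseudocount of 0.1 and on division by the median of ratios. The receptor genes TNFRSF1A and LTBR, which bind tumour necrosis factor and lymphotoxin, had hypoxia effects of -0.73 and -0.66 and did not pass (limma adjusted p = 0.074 and 0.13). LTBR was at 129 FPKM in 3D hypoxia and 154 FPKM in 3D normoxia, and at 74.6 FPKM in 2D hypoxia and 158 FPKM in 2D normoxia. IL1RAP, the shared chain of the interleukin-1 receptor, and TLR3, a sensor of double-stranded RNA, had effects of 0.63 and 0.39 and did not pass. TNFRSF12A, the receptor of the cytokine TWEAK, fell with 3D culture by 1.22 ± 0.21 on the log2 scale (limma adjusted p = 0.019), and its hypoxia effect of 0.96 did not pass (adjusted p = 0.066). Of the classical inducers, TNF was at most 0.0638 FPKM, IL1A at most 0.0515 and IL1B at most 0.621 in any library.

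All 22 genes of adaptors and kinases were measured, and 1 rose under hypoxia and 0 fell, close to the 3.20% and 1.64% of all genes. MAP3K14, the gene of the kinase NIK, was at 25.3 FPKM in 3D hypoxia and 13.6 FPKM in 3D normoxia, and at 34.1 FPKM in 2D hypoxia and 18.9 FPKM in 2D normoxia. It rose under hypoxia by 0.84 ± 0.11 (limma adjusted p = 0.025), with nearly the same ratio in both cultures (0.85 in 3D and 0.82 in 2D), and fell by 0.43 with 3D culture (adjusted p = 0.0461), a call lost without the trend and on division by the median of ratios. With 3D culture 2 of this list rose and 1 fell, against 10.4% and 11.6% of all genes. On rescaling to a common sum 0 of this list rose and 4 fell with 3D culture, against 767 and 3132 of all 12663 genes. The adaptor genes TRADD (0.64, limma adjusted p = 0.032) and MYD88 (0.57, adjusted p = 0.033) rose with 3D culture. Both of these culture calls were lost on rescaling to a common sum. The IKK subunit genes CHUK, IKBKB and IKBKG had hypoxia effects of -0.17, -0.06 and 0.15 and did not pass. RBCK1, a subunit of the linear ubiquitin ligase, and the ubiquitin ligase genes BIRC2, TRAF3 and TRAF6 had effects of 0.53, 0.46, 0.44 and 0.39 and did not pass. The median of the list was 0.15.

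Of the 6 other subunit and IkB genes, 0 rose and 0 fell under hypoxia by limma, against 3.20% and 1.64% of all genes, with a median effect of 0.24. With 3D culture 1 rose and 0 fell, against 10.4% and 11.6%. NFKBIE, which encodes another inhibitor of the IkB kind, rose with 3D culture by 0.77 ± 0.17 (limma adjusted p = 0.031). It was at 10.98 FPKM in 3D hypoxia and 6.62 FPKM in 3D normoxia, and at 4.75 FPKM in 2D hypoxia and 4.45 FPKM in 2D normoxia. BCL3, a nuclear IkB protein, had a hypoxia effect of 0.32, REL, the fifth subunit, 0.24, NFKBIB -0.32 and NFKBID -0.29, and these did not pass.

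Of 10 other feedback genes 9 passed the filter. TNIP1 and IER3 rose under hypoxia and 0 fell, against 3.20% and 1.64% of all genes. With 3D culture 1 rose and 1 fell, close to the 10.4% and 11.6% of all genes. TNIP1, which encodes a protein that works with A20, was at 170 FPKM in 3D hypoxia and 48.7 FPKM in 3D normoxia, and at 78.0 FPKM in 2D hypoxia and 30.3 FPKM in 2D normoxia. TNIP1 rose by 1.56 ± 0.15 under hypoxia (limma adjusted p = 0.010) and by 0.89 ± 0.15 with 3D culture (adjusted p = 0.018), so that it followed the order of TNFAIP3 and BIRC3. IER3, an early response gene, rose by 0.74 ± 0.12 under hypoxia (limma adjusted p = 0.037) and fell by 0.46 with 3D culture (adjusted p = 0.0475), the first call being lost on rescaling to a common sum, both without the trend, and the second also on division by the median of ratios. CYLD, a deubiquitinase, had an effect of 0.37, TNIP2 0.25, TRAF1 0.19 and ZC3H12A, a nuclease that degrades cytokine RNA, -0.26, and these did not pass.

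The other target genes moved in both directions. Of 28 listed, 20 passed the filter, 4 rose under hypoxia and 0 fell, against 3.20% and 1.64% of all genes. The 4 were CCL2 (2.32 ± 0.13, limma adjusted p = 0.00456), SDC4, a heparan sulphate proteoglycan (1.28), GADD45B, a stress-response gene (0.92), and NUAK2, a kinase gene (0.67). GADD45B and NUAK2 lost the call on rescaling to a common sum and without the trend, and GADD45B also on division by the median of ratios. F3 (tissue factor) had an effect of 1.59, the chemokine gene CXCL2 -0.67, the transcription factor gene IRF1 0.42 and CFLAR, which restrains caspase-8, 0.38, and these did not pass. Without genes listed at 0 in any library the hypoxia counts were 8 and 1, against 734 and 507 of 12578 genes. With 3D culture 10 rose and 3 fell, against 10.4% and 11.6% of all genes, so the 3 that fell were near their share. On rescaling to a common sum the culture counts were 10 and 6, against 767 and 3132 of all 12663 genes. Without genes listed at 0 they were 12 and 5, against 1725 and 1898 of 12578. The 10 that rose included the chemokine genes CXCL1, CXCL3 and CXCL5 (1.77, 1.30 and 2.19), the mitochondrial dismutase gene SOD2 (1.20) and LCN2 (2.24), whose product binds bacterial iron carriers. The others were CXCL8, PTGS2, CSF1, TNFSF10 and TNFSF15, of which TNFSF10 and TNFSF15 passed the filter only through the 3D libraries, where they were high. CXCL8 was at 57.0 FPKM in 3D hypoxia and 13.3 FPKM in 3D normoxia, and at 7.28 FPKM in 2D hypoxia and 4.50 FPKM in 2D normoxia. GADD45B, NUAK2 and BCL2A1, an antiapoptotic gene, fell by 0.99, 1.11 and 0.87 on the log2 scale, and BCL2A1 passed the filter only through the 2D libraries, where it was high. SOD2 was at 112 FPKM in 3D hypoxia and 41.2 FPKM in 3D normoxia, and at 33.9 FPKM in 2D hypoxia and 24.9 FPKM in 2D normoxia. CXCL10 was listed at 0 in all 4 libraries, and IL6 in all but 2D hypoxia (0.144 FPKM). The median hypoxia effect of the list was 0.33 and its median 3D effect 0.80.

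Of 4 genes for proteins reported to bind IL32, 1 passed the filter. ITGAV, an integrin subunit, was at 67.7 FPKM in 3D hypoxia and 36.0 FPKM in 3D normoxia, and at 89.3 FPKM in 2D hypoxia and 42.7 FPKM in 2D normoxia, and rose by 0.97 ± 0.12 (limma adjusted p = 0.021). PRTN3, ITGB3 and ITGB6 were at most 2.03, 1.05 and 1.67 FPKM in any library.

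**Figure D5:**
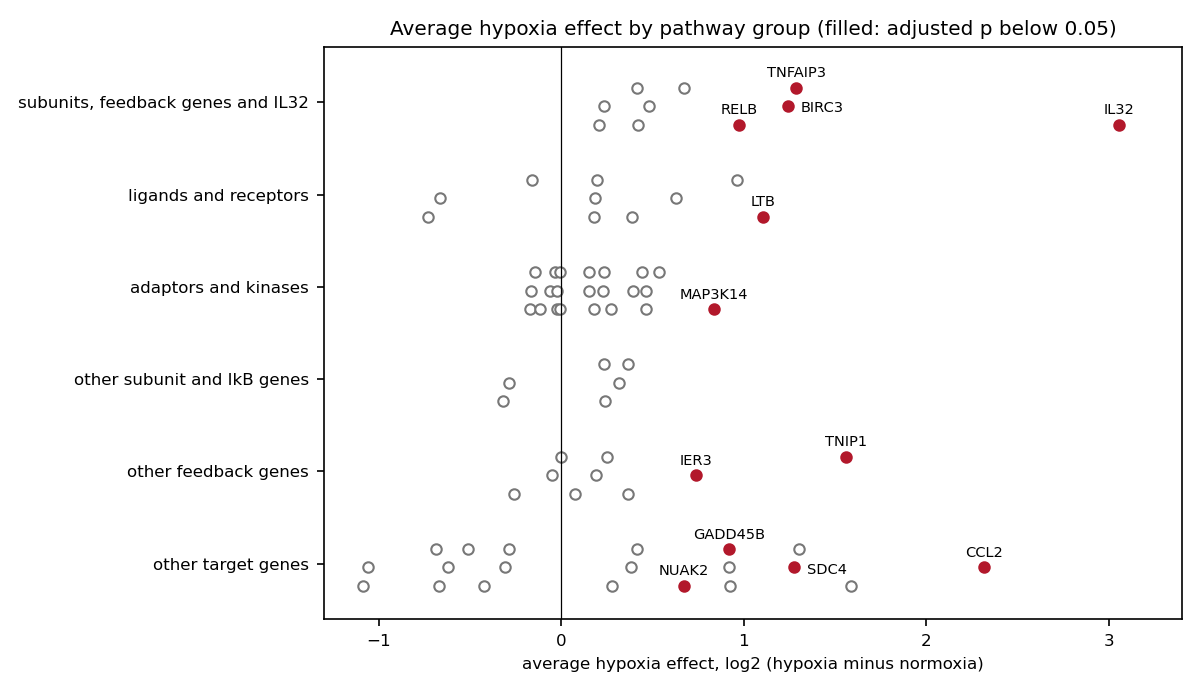
Average hypoxia effect (log2, hypoxia minus normoxia) of each tested gene, by pathway group, 1 point per gene; filled and named points have a limma adjusted p below 0.05, and the vertical spread within a group only separates points. The filled points all lie at or above 0.67, and the target genes spread from -1.085 (PTGS2) to 2.32 (CCL2).

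The libraries were checked against their labels. The hypoxia markers CA9, EGLN3, NDRG1, VEGFA and ADM rose, 5 of 5 by limma. Of the 5 epithelial markers, KRT8 and KRT18, keratins of simple epithelia, were at 1721 FPKM or more in each library. The cadherin gene CDH1 was at 24.6 to 37.3 FPKM and the adhesion molecule gene EPCAM at only 1.43 to 2.73 FPKM. The keratin gene KRT19 rose with 3D culture (1.56 ± 0.17, limma adjusted p = 0.00885). The alveolar genes NKX2-1, SFTPA1, SFTPB and SFTPC, markers of type II cells, were at most 0.1003 FPKM. IL32, ICAM1 and BIRC3 are also expressed by immune and endothelial cells. Of the 6 markers of T and NK cells, CD3D, CD3E, CD2 and GZMB were listed at 0 in all libraries, and the sum of the 6 was 0.147 FPKM in 3D hypoxia and 0.375 FPKM in 3D normoxia, and 0.2 FPKM in 2D hypoxia and 0.184 FPKM in 2D normoxia. The 3 B cell markers summed to at most 0.399 FPKM, the 3 red cell markers to at most 0.602 and the 5 endothelial markers to at most 0.475, with no member above 0.431. The 5 myeloid markers summed to 42.9 and 44.7 FPKM in 3D hypoxia and 3D normoxia, and to 17.3 and 31.8 FPKM in 2D hypoxia and 2D normoxia. Nearly all of that was CD68 and CD14, and CSF1R was listed at 0 in all libraries. CD68 rose with 3D culture (0.90 ± 0.16, limma adjusted p = 0.021), as did 5 of the 10 genes, and the part of these markers in the culture differences was not tested. The 6 fibroblast markers summed to at most 2.76 FPKM outside 2D hypoxia, where COL1A1 brought the sum to 14.3 FPKM.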

How the data were processed

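Per the labels' protocols, a miRNeasy Micro kit gave the RNA, and TruSeq Stranded mRNA chemistry the libraries. The submitters' processing notes name hg19 and the tools Cuffdiff 2.2.1, TopHat2 2.1.1, SAMtools 0.1.18 and Bowtie2 2.2.8. Not given in the sources used here were gene annotation, library scaling, strand setting and depth. The authors deposited 1 FPKM value per symbol and library, and no counts were used. Without the strand setting, reads of RELA, TNFAIP3, ICAM1 and IL32 cannot be told apart from those of genes annotated on the other strand (GENCODE 29). IL32 also overlaps RNU1-125P, a small nuclear RNA gene on its own strand, which no strand setting would separate from it.

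Depth was estimated from the mode of the low products of length and FPKM among 2134 genes with a single transcript over 1 kb (46 to 63 genes lay within 5% of it), at 11304039 fragments in 3D hypoxia, 11784415 in 3D normoxia, 38716736 in 2D hypoxia and 23806517 in 2D normoxia. These are estimates. Fragments per gene used the median GENCODE 29 length of the principal transcripts of the gene, as a length only. IL32 had 10 of these, with a median of 906 bases. Counting errors leave out biological and technical variation.

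limma 3.58.1 in R 4.3.3 (trend, oxygen and culture as additive terms, 1 residual and 4.67 prior degrees of freedom, Benjamini-Hochberg over all genes tested) was fitted to log2(FPKM + 1) and tested on simulated data. The alternatives were another pseudocount, no filter and a stricter one, a common sum per library, no trend, genes listed at 0 left out and, chosen after seeing the data, division by the median of ratios. No label says whether cultures were independent. The 1 residual degree of freedom is the departure from additive effects, the difference of the hypoxia response between the cultures. SE and p-values therefore rest on that difference, moderated over genes, which may be technical. They do not measure variation between replicates, of which there were none. Other steps used Python 3.11.15, numpy 2.4.6, pandas 2.3.3 and matplotlib 3.10.9. The members and lists were chosen with earlier results of these data known. All members were described, and of each list the called genes and up to 4 others with the largest hypoxia effects were named. TNF, IL1A, IL1B, IL6, CXCL10, PRTN3, ITGB3, ITGB6 and the IKK genes were named after their values were seen.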

Additional observations from a re-analysis of the deposited data

Results flagged for a closer look

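The hypoxia log2 ratio had opposite signs in the 2 cultures for 9 of the pathway genes named, and for none of the 10 genes themselves. Of all genes, 47.7% had a ratio above 0 in 3D, 49.6% in 2D and 34.2% in both. Opposite signs were therefore common, and the 9 are not read as a trait of the pathway. For PTGS2, CHUK, IKBKB and CXCL5, 1 of the 2 ratios was near 0. With 1 library per group, the differences in sign were not tested. The ratio of CXCL1 was 0.50 in 3D and -1.12 in 2D. That of CXCL5 was 0.0929 in 3D and -1.47 in 2D. PTGS2, the gene of an inducible cyclooxygenase, had 0.0439 in 3D and -2.21 in 2D. BCL3 had 0.74 in 3D and -0.11 in 2D, TRAF1 had 0.48 in 3D and -0.10 in 2D, and MYD88 had 0.15 in 3D and -0.16 in 2D. The IKK genes were named after their values were seen. Among them, CHUK had -0.41 in 3D and 0.0693 in 2D, IKBKB had 0.0795 in 3D and -0.20 in 2D, and IKBKG had 0.46 in 3D and -0.16 in 2D.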

How the results depend on the processing

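No paired analysis was possible because each group has 1 library and the labels number no replicates. For the same reason no library could be left out of a tested effect, and the values within each culture stand in the report. No filter on low values lost every call among the 10 genes (0 for hypoxia and 0 for culture), with 5 genes higher and 0 lower for hypoxia and 1 higher and 2 lower for culture over all 19356 genes. The effects themselves did not move, and the adjusted p of IL32 was 0.068 and that of NFKBIA for culture 0.055. Counts over all genes moved by more than 1.5 times under other settings. For hypoxia they were 254 higher and 112 lower without trend, 734 and 507 without genes listed at 0 in any library, 313 lower at a mean of at least 5 FPKM, and 475 lower on rescaling each library to a common sum, where the deposited scale gave 405 and 208. For culture they were 767 higher and 3132 lower on that rescaling, where the deposited scale gave 1313 and 1472. With a pseudocount of 0.1, and on that rescaling, 1 gene of the 10, ICAM1, had a response at least 2-fold larger in 3D. ICAM1 had passed the filter only through its 3D hypoxia library. On that rescaling 0 of the 10 were 2-fold higher in 3D normoxia than in 2D normoxia. Without genes listed at 0, ICAM1 passed for culture (adjusted p = 0.034). The cause of these shifts was not tested. Division by the median of ratios, chosen after seeing the data, changed no call of the 10. No average effect of the 10 changed sign under any setting. At these depths, counting error limits ICAM1 and the normoxia values of IL32, which rested on about 46 and 88 fragments in 3D and 2D.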
